A study of Mus musculus with 20 samples.

Results

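Left ventricles taken 14 days after transverse aortic banding (TAB) were compared with left ventricles taken on the same day after sham surgery. TAB narrows the aorta, so that the left ventricle has to pump against a raised pressure, whereas the sham operation leaves the aorta open. The comparison held 4 of the 20 miRNA arrays of the series, which were chosen by the surgery and day in their titles: 2 arrays of TAB day 14 and 2 arrays of sham day 14. The other 16 arrays came from days 3, 5, 7, and 28, with 2 arrays for each surgery and day, and served as a yardstick for the levels of day 14. All mice were male C57BL/6J, operated on at 8 weeks of age, and no genetic change or drug was part of the design. The TAB arrays of this day carry 14 days in their titles and 15 days in their condition label, and the title was followed.

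The 2 arrays of a group were technical replicates in the study's methods, and the number of hearts behind them is not given in the sources used here. Each surgery therefore has 1 RNA sample on day 14. A test on the arrays compares these RNA samples with an error taken from repeated hybridization, and the difference between the surgeries on this day has no biological replicate check. Array values are log2 intensities after quantile normalization over all 20 arrays, and a ratio is the mean of the TAB day 14 arrays minus the mean of the sham day 14 arrays on that scale. Its standard error (SE) comes from the replicate arrays of all 10 groups.

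MiRNAs are short RNAs that load into Argonaute proteins and lower the stability and translation of mRNAs that pair with them, mainly through the seed, the bases 2 to 8 of the miRNA. MiRNAs with the same seed form a family with largely shared targets. In a heart under pressure load, muscle cells enlarge, fibroblasts lay down matrix, and fetal genes of the muscle return. Several miRNAs are known for parts in this process, among them miR-21, which is abundant in cardiac fibroblasts, miR-208b, which lies in an intron of the slow myosin heavy chain gene Myh7, and the miR-15 family, which restrains the cell cycle of heart muscle cells.

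The mature sequences of the miRNAs that carry the results are given first, 5′ to 3′, with the seed in capitals. They were taken from RefSeq (GRCm38.p6), where 24 of 30 miRNAs looked up were found under their current names. The strongly raised miRNAs have unrelated seeds:
miR-21: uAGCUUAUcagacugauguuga
miR-199a-3p: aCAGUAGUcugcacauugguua
miR-199a-5p: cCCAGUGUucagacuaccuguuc
miR-208b: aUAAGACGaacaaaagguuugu
miR-494: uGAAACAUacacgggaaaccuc
miR-3968: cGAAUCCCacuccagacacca
The gene of miR-21 lies at chr11:86584120-86584141 on the minus strand, that of miR-208b at chr14:54975710-54975731 on the minus strand, and that of miR-494 at chr12:109715367-109715388 on the plus strand, in the imprinted Dlk1-Dio3 region. Mature miR-199a-3p and miR-199a-5p are the arms of the same hairpins, which are encoded on chromosomes 1 and 9.

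The next set shows the families and clusters whose ratios are set side by side below, so that their seeds can be compared. The let-7 seed is shared by miR-98, let-7f, and let-7g, the miR-15 seed by miR-195, miR-16, and miR-15a, the miR-27 seed by miR-27a and miR-27b, and the miR-17 seed by miR-17 and miR-20a, while miR-23a and miR-24 lie in the clusters of miR-27a and miR-27b and have seeds of their own:
miR-98: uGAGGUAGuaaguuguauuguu
let-7f: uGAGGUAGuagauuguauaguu
let-7g: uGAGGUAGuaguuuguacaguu
miR-195: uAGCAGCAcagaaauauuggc
miR-16: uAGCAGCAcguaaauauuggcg
miR-15a: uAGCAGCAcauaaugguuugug
miR-27a: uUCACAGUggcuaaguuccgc
miR-27b: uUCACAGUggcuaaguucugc
miR-23a: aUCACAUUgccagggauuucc
miR-24: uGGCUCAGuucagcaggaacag
miR-17: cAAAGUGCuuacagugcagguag
miR-20a: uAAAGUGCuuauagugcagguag
Family members this close in sequence can share signal on an array, and how far the probes tell them apart is not given in the sources used here. The last set holds miRNAs with lowered ratios (miR-1896, miR-3474, and miR-706). It also holds miRNAs whose ratio passed the size limit given below only with sham day 14 as the denominator (miR-1247*, miR-505-5p, and miR-22):
miR-1896: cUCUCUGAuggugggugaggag
miR-3474: cCCUGGGAggagacguggauuc
miR-706: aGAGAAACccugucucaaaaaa
miR-1247*: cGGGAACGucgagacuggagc
miR-505-5p: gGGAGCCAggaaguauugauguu
miR-22: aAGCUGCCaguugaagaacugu

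Of 1086 mouse miRNA probes, 928 were measured after the filter on spot flags, and 678 were found on both arrays of at least 1 surgery on day 14. Found means here that 2 or 3 of the 3 spots of a miRNA carried no negative flag on that array. The TAB day 14 arrays found 632 and 648 miRNAs and had raw 75th percentiles of 275 and 288, and the sham day 14 arrays found 641 and 698 and had raw 75th percentiles of 378 and 329. Empty spots had medians of 65 to 74 on the 20 arrays. The muscle miRNAs miR-1a, miR-133a, miR-133b, miR-208a-3p, and miR-499 were found on all 20 arrays, as the tissue label implies. On the first principal component, which held 62.4% of the variance, the TAB day 14 arrays scored 6.01 and 4.96, within the range of the other TAB arrays (4.92 to 7.66). The sham day 14 arrays scored -1.31 and -2.16, between the TAB arrays and the other sham arrays (-8.06 to -6.78). A second ratio was therefore formed for each miRNA. In it, the mean of the sham samples of days 3, 5, 7, and 28 takes the place of sham day 14. The second ratio is printed for part of the miRNAs below, and a ratio printed alone can depend on this sham sample as well. Both ratios share the TAB day 14 sample, and the second one sets day 14 against other days.

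**Figure D1:**
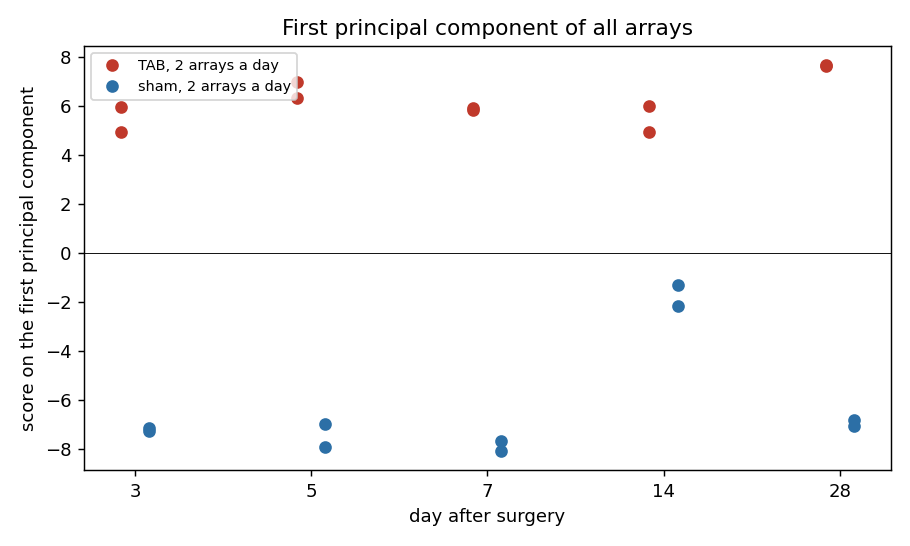
Score of each of the 20 arrays on the first principal component of 928 miRNAs (vertical axis) by day after surgery (horizontal axis), with TAB arrays in red and sham arrays in blue. The sham arrays of day 14 scored -1.31 and -2.16, and the other sham arrays scored -8.06 to -6.78.

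The spread of ratios on day 14 was the narrowest of the series. The standard deviation (SD) of the ratios over the 928 miRNAs was 0.44 on day 3, 0.50 on day 5, 0.48 on day 7, 0.35 on day 14, and 0.51 on day 28. The number of miRNAs raised more than 2-fold was 21, 39, 33, 13, and 49 on these days, and the number lowered more than 2-fold was 23, 25, 31, 5, and 17. The sham sample of day 14 differed from the mean of the other sham samples with an SD of 0.29 over miRNAs, whereas the same value was 0.16 to 0.20 for the sham samples of the other days. The TAB sample of day 14 differed from the other TAB samples with an SD of 0.17, within the 0.14 to 0.18 of the TAB samples of the other days. The replicate arrays of day 14 differed with an SD of 0.16 in TAB and 0.24 in sham.

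On day 14, 25 miRNAs were raised and 23 lowered beyond 2 SD of all ratios of the day, the size rule of the study's methods, which set the limit at 0.70 on the log2 scale or 1.63-fold (2.69% and 2.48% of the 928 miRNAs). The raised miRNAs were led by miR-21 and miR-199a-3p, and they included the other 2 measured strands of the miR-199 hairpins, miR-98, miR-208b, miR-195, and miRNAs of the miR-23/27/24 clusters. The lowered miRNAs were led by miR-122, a liver miRNA, and by miR-1896, miR-3474, and miR-505-5p, and they included miR-378 and miR-378b of heart muscle. In all 48, the TAB arrays did not overlap the sham arrays, as was also so for 64.4% of the 928 miRNAs. By limma on the arrays, 114 miRNAs were higher and 133 lower in TAB at an adjusted p under 0.05 (12.3% and 14.3%), among them 24 of the 25 raised and 21 of the 23 lowered miRNAs. The raised share of the array calls was 46.2% in this setting, 75.5% when arrays were scaled to their 75th percentile, 82.4% with the processed table, 14.9% without scaling, and 3.84% with separate quantile targets for TAB and sham. These scalings shifted the median ratio of all miRNAs by 0.18, 0.18, -0.14, and -0.30, so changes below are relative to the other miRNAs of the array. Relative to the median of all miRNAs, the medians of the let-7, miR-15, miR-17, miR-23/27/24, and miR-199 and miR-214 lists were higher under each of these scalings, by 0.21 (miR-17 clusters) to 1.46 (miR-199 and miR-214), and that of the muscle list was lower under each, at -0.38 to -0.31 from it.

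**Figure D2:**
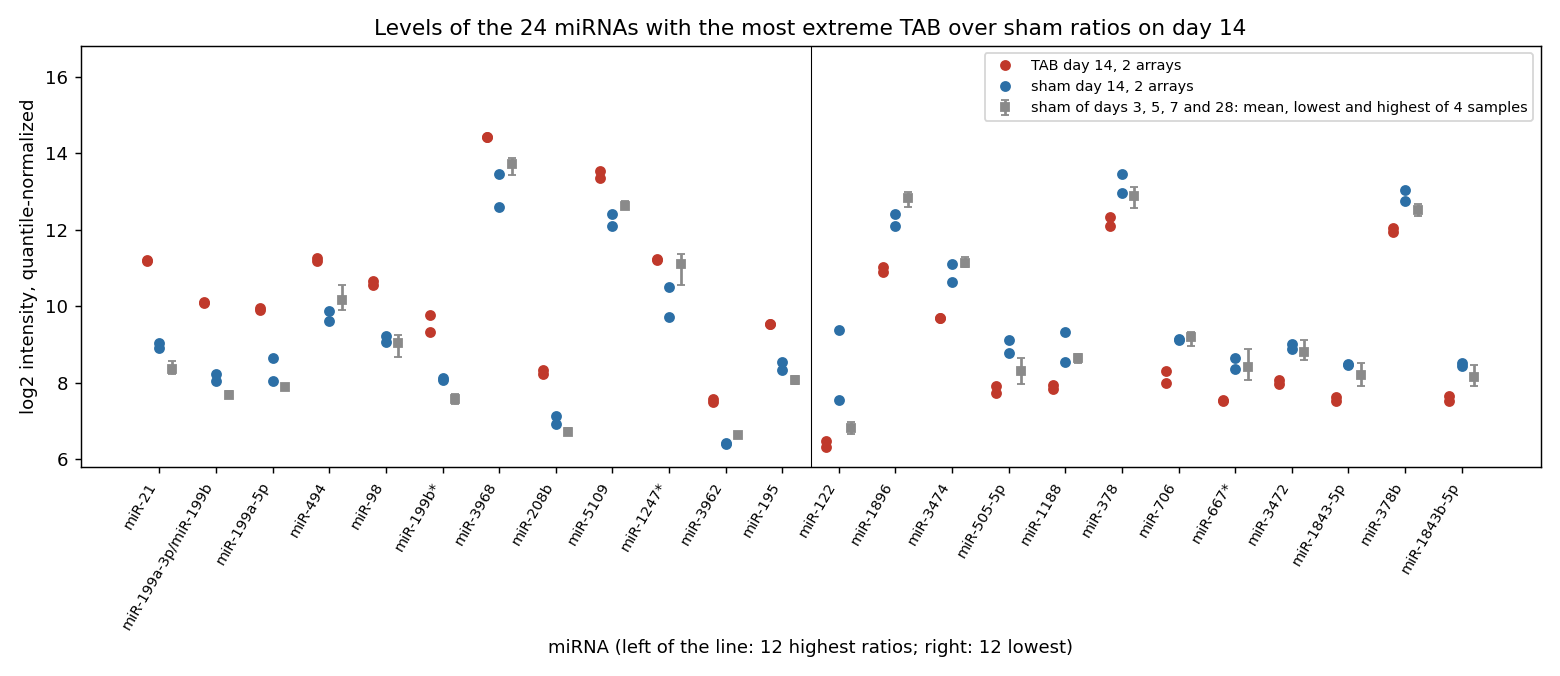
Log2 intensity (vertical axis) of the 12 miRNAs with the highest and the 12 with the lowest ratios on day 14 (horizontal axis). Red points are the TAB day 14 arrays, blue points the sham day 14 arrays, and grey squares the mean of the 4 other sham samples with their lowest and highest value. For miR-21 the TAB arrays lie at 11.21 and 11.18, above the sham arrays at 9.03 and 8.91, and for miR-122 the sham arrays at 9.39 and 7.55 lie above the other sham samples.

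MiR-21, known for its rise in loaded hearts, had the highest ratio of the day. Its log2 intensity was 11.21 and 11.18 on the TAB arrays and 9.03 and 8.91 on the sham arrays. The arrays of the surgeries were far apart and agreed closely within a surgery, and TAB was 4.68-fold higher (log2 ratio 2.23 ± 0.13, SE, limma adjusted p = 7.15e-08). The sham level of day 14 lay above the other sham samples, which ranged from 8.23 to 8.57, and against their mean the ratio was 2.84. On days 3, 5, 7, and 28 the ratio of miR-21 was 2.76, 3.56, 3.55, and 2.32, so that of day 14 was the smallest of the 5 days.

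The miR-199 hairpins give strands that are abundant in fibroblasts and smooth muscle. MiR-199a-3p, whose probe also stands for miR-199b, read 10.10 and 10.12 on the TAB arrays and 8.24 and 8.05 on the sham arrays. Its level was 3.90-fold higher in TAB (1.96 ± 0.09, adjusted p = 1.23e-08), with the smallest p of the 928 miRNAs, and the TAB level of day 14 was above the other TAB samples (9.61 to 9.94). MiR-199a-5p read 9.95 and 9.90 on the TAB arrays and 8.66 and 8.05 on the sham arrays (1.57 ± 0.18, adjusted p = 3.73e-05). MiR-199b*, the other strand of the miR-199b hairpin, read 9.78 and 9.33 on the TAB arrays and 8.07 and 8.12 on the sham arrays (1.46 ± 0.11, adjusted p = 1.72e-06). All these strands were raised without overlap. Their second ratios were 2.44, 2.03, and 1.98, since sham day 14 lay above every other sham sample for each of them. MiR-214, which is transcribed together with miR-199a-2, moved less (0.41 ± 0.12, adjusted p = 0.026), as did miR-214* (0.47 ± 0.07, adjusted p = 0.0004), and neither passed the limit.

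MiR-208b, the muscle miRNA tied to Myh7, read 8.33 and 8.23 on the TAB arrays and 7.15 and 6.92 on the sham arrays. TAB was 2.38-fold higher (1.25 ± 0.10, adjusted p = 1.72e-06). The groups did not overlap. The ratio was 0.89, 0.89, 0.88, and 2.01 on days 3, 5, 7, and 28, so that day 14 was next to the highest. The second ratio was 1.56. No other muscle miRNA of the list passed the upper limit. MiR-208a-3p, from the adult myosin gene Myh6, had a ratio of -0.30 ± 0.12 (adjusted p = 0.086), miR-499 -0.07 ± 0.13 (adjusted p = 0.734), and miR-1a -0.13 ± 0.15 (adjusted p = 0.578).

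MiR-133a and miR-133b, which are known to oppose growth of heart muscle cells, had ratios of -0.55 ± 0.31 (adjusted p = 0.217) and -0.45 ± 0.20 (adjusted p = 0.12). MiR-378, from an intron of the gene of the metabolic regulator PGC-1β, was the muscle miRNA past the lower limit. It read 12.10 and 12.34 on the TAB arrays and 13.45 and 12.95 on the sham arrays (-0.98 ± 0.22, adjusted p = 0.00488), without overlap. Its second ratio of -0.65 was within the limit. All 7 muscle miRNAs had a sham level on day 14 above every other sham sample, as against 31.5% of all miRNAs, so that their median ratio was -0.30 with sham day 14 and 0.18 with the other sham samples. Over all 928 miRNAs these medians were 0.00 and -0.03.

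MiR-98 of the let-7 family was raised with either sham. It read 10.67 and 10.56 on the TAB arrays and 9.07 and 9.22 on the sham arrays, and was 2.78-fold higher in TAB (1.48 ± 0.14, adjusted p = 6.27e-06). Its sham level on day 14 lay within the other sham samples (8.69 to 9.25), and the second ratio was 1.57. The other 8 measured members did not pass the limit of the day, although all were above 0, with ratios of 0.29 to 0.67. Of these, let-7f (0.67 ± 0.14, adjusted p = 0.00443) and let-7e (0.65 ± 0.22, adjusted p = 0.0395) passed the test on the arrays. Against the other sham samples all 9 members passed the limit, while 6.68% of all miRNAs were raised past it. The median of the family was 1.17 instead of 0.55, against -0.03 and 0.00 over all miRNAs. Sham day 14 lay above every other sham sample for 8 of the 9, and for 31.5% of all miRNAs.

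The same contrast between members was seen in the miR-15 family. MiR-195 read 9.53 and 9.54 on the TAB arrays and 8.56 and 8.35 on the sham arrays, and was 2.12-fold higher in TAB (1.08 ± 0.12, adjusted p = 3.3e-05). MiR-16, with the same seed, read 10.86 and 10.41 on the TAB arrays and 10.07 and 10.59 on the sham arrays, which overlapped, and its ratio was 0.30 ± 0.18 (adjusted p = 0.235). The sham level of miR-16 in the other samples was 9.04 to 9.47, and its second ratio was 1.40. MiR-322 (0.68 ± 0.17), miR-15b (0.63 ± 0.12), and miR-497 (0.52 ± 0.18) also passed the test on the arrays (adjusted p = 0.00958, 0.00238, and 0.0497), whereas miR-15a had a ratio of 0.32 ± 0.20 (adjusted p = 0.271). In all, 1 of 6 members passed the limit with sham day 14 and 6 of 6 with the other sham samples, with medians of 0.58 and 1.15. Over all miRNAs 2.69% and 6.68% were raised past it, with medians of 0.00 and -0.03.

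The miR-23/27/24 clusters, which are known from endothelial cells and heart muscle, had 3 of 5 members past the limit. Of all miRNAs, 2.69% were raised past it. MiR-23b read 12.04 and 11.95 on the TAB arrays and 11.12 and 10.94 on the sham arrays (0.96 ± 0.13, adjusted p = 0.000186). MiR-27b read 11.10 and 10.97 on the TAB arrays and 9.90 and 10.55 on the sham arrays (0.81 ± 0.14, adjusted p = 0.00108). MiR-27a read 11.68 and 11.82 on the TAB arrays and 11.24 and 10.56 on the sham arrays (0.84 ± 0.28, adjusted p = 0.0387). The groups did not overlap for any of them, but the sham arrays of miR-27a and miR-27b were further apart than their TAB arrays. The second ratios of miR-23b, miR-27b, and miR-27a were 1.73, 1.75, and 1.41. Without sham day 14 replicate 2 the ratio of miR-27a was 0.50 (adjusted p = 0.302), and without sham day 14 replicate 1 that of miR-27b was 0.49 (adjusted p = 0.000773), both within the limit.

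MiR-23a and miR-24 were within the limit with sham day 14 and past it with the other sham samples. MiR-23a read 11.86 and 11.53 on the TAB arrays and 11.05 and 11.53 on the sham arrays (0.40 ± 0.16, adjusted p = 0.086), and miR-24 read 12.34 and 12.26 on the TAB arrays and 11.62 and 12.23 on the sham arrays (0.38 ± 0.18, adjusted p = 0.129). One sham array in each case reached the TAB level or came close to it. In the other sham samples miR-23a lay at 10.11 to 10.30 and miR-24 at 10.80 to 11.14, and their second ratios were 1.50 and 1.38. The ratio of miR-23a was 0.96, 1.97, 1.40, and 1.77 on days 3, 5, 7, and 28. All 5 members of the clusters passed the limit with the other sham samples, and the median was 1.50 instead of 0.81. Over all miRNAs 6.68% were raised past it with the other sham samples, and the medians were -0.03 and 0.00.

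**Figure D3:**
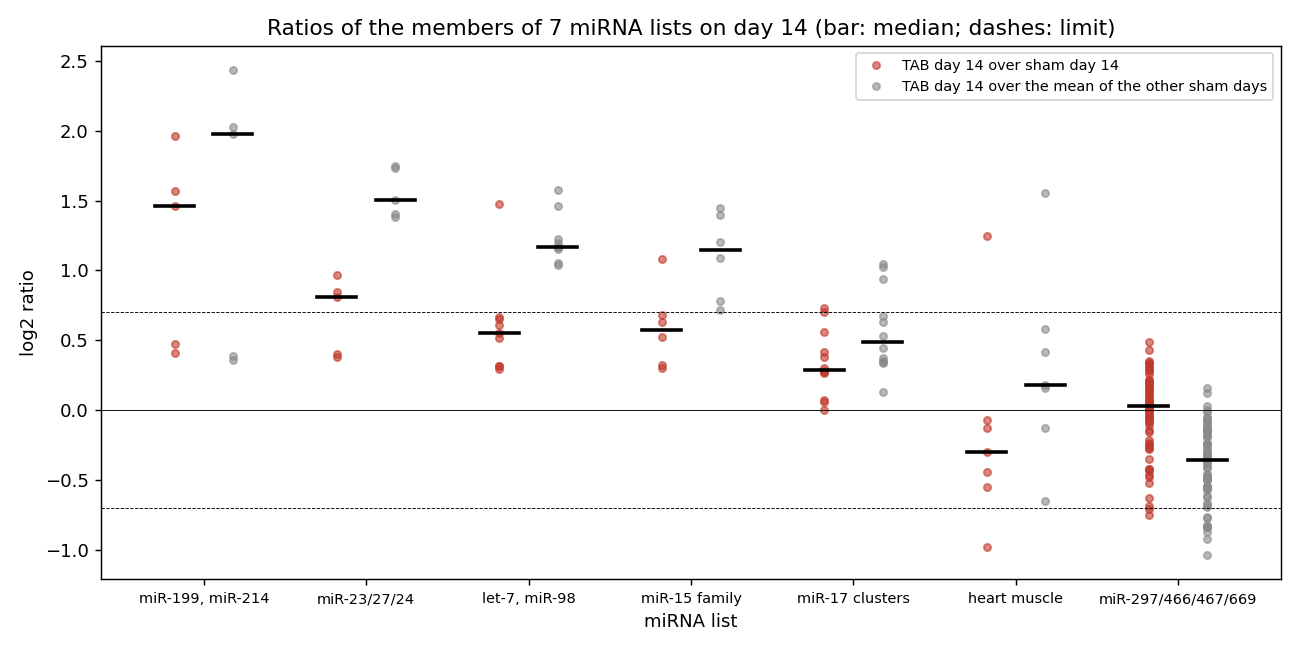
Log2 ratio (vertical axis) of each member of 7 miRNA lists (horizontal axis), with TAB day 14 over sham day 14 in red and TAB day 14 over the mean of the 4 other sham samples in grey. Bars are medians and dashed lines the limit of 0.70. The let-7 and miR-98 list has a median of 0.55 in red and 1.17 in grey, and the miR-466, miR-467, miR-669, and miR-297 list has medians of 0.03 and -0.36.

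Among the miR-17 clusters, whose members are known to favour cell growth, miR-17 and miR-20a just passed the limit. MiR-17 read 8.53 and 8.57 on the TAB arrays and 7.89 and 7.74 on the sham arrays (0.73 ± 0.07, adjusted p = 1.17e-05), and miR-20a read 8.40 and 8.32 on the TAB arrays and 7.77 and 7.55 on the sham arrays (0.70 ± 0.12, adjusted p = 0.000899). Both groups were apart in each. Of the 12 measured members of the clusters, 6 passed the test on the arrays, all upward (12.3% of all miRNAs were higher and 14.3% lower). The median ratio was 0.29, against 0.00 over all miRNAs, while miR-92a had a ratio of 0.00 ± 0.17. MiR-20a, at 1.63-fold, lay just past the limit, and miR-30b (0.70 ± 0.11, adjusted p = 0.0004), at 1.62-fold, lay just within it.

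Other raised miRNAs had a sham level on day 14 below that of the other sham samples. MiR-494 of the Dlk1-Dio3 region read 11.18 and 11.27 on the TAB arrays and 9.88 and 9.60 on the sham arrays (1.48 ± 0.12, adjusted p = 3.79e-06), and its second ratio was 1.07. Of the 36 measured miRNAs on the list for that region, 1 passed the upper limit (miR-494) and 1 the lower (miR-370). Over all miRNAs, 2.69% passed the upper and 2.48% the lower limit. The list is a selection, so these counts do not cover every miRNA of the region. It leaves out miR-1247*, encoded further along the same chromosome at chr12:110278058-110278078 on the minus strand. MiR-667* and miR-1188, both lowered past the limit, are not on the list either. MiR-3968 read 14.43 on both TAB arrays and 12.59 and 13.45 on the sham arrays (1.41 ± 0.25, adjusted p = 0.00148), and its second ratio of 0.72 was just past the limit.

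MiR-1247* read 11.24 and 11.21 on the TAB arrays and 10.49 and 9.71 on the sham arrays. The groups did not overlap, but the error was wide (1.12 ± 0.48, adjusted p = 0.102). The other sham samples ranged from 10.55 to 11.35, the second ratio was 0.12, and the ratio was -0.45, 0.46, -0.76, and -0.31 on days 3, 5, 7, and 28. The ratio of miR-1247* thus owed its size to the low sham level of day 14.

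MiR-1894-3p and miR-5109 had TAB levels on day 14 that stood further from the other TAB samples (1.24 and 0.69) than their sham levels did from the other sham samples (-0.17 and -0.36). MiR-1894-3p read 12.26 and 12.48 on the TAB arrays and 11.34 and 11.48 on the sham arrays (0.96 ± 0.09, adjusted p = 5.7e-06), and the other TAB samples ranged from 10.86 to 11.63. MiR-5109 read 13.36 and 13.54 on the TAB arrays and 12.42 and 12.10 on the sham arrays (1.19 ± 0.14, adjusted p = 4.53e-05), and the other TAB samples ranged from 12.38 to 12.99. For both miRNAs, TAB day 14 was above all other TAB samples. In limma on the averaged samples, the TAB term of day 14 called neither, and called 0 of the 928 miRNAs (0%), with 68 at an unadjusted p under 0.05.

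MiR-3962 read 7.50 and 7.57 on the TAB arrays and 6.42 and 6.43 on the sham arrays (1.11 ± 0.10, adjusted p = 6.27e-06), and was found on both TAB arrays and 1 of the 2 sham arrays. Its raw intensity was 183 and 194 on the TAB arrays and 90 and 93 on the sham arrays, close to the empty spots, so that its sham level and the size of its ratio are uncertain. MiR-5117 read 10.47 and 9.996 on the TAB arrays and 9.04 and 9.27 on the sham arrays (1.08 ± 0.12, adjusted p = 3.73e-05), with a second ratio of 1.76. The groups did not overlap in either. The remaining raised miRNAs were miR-5097 (0.89), miR-130b (0.89), miR-126-5p of endothelial cells (0.81), miR-5130 (0.77), miR-2136 (0.74), and miR-451 of red blood cells (0.72), with limma adjusted p-values of 5.7e-06 to 0.00484. MiR-126-3p, the other strand of the miR-126 hairpin, had a ratio of 0.04 ± 0.23 (adjusted p = 0.923). MiR-143 and miR-145 of smooth muscle had ratios of -0.54 ± 0.09 (adjusted p = 0.000524) and -0.37 ± 0.16 (adjusted p = 0.112). The 4 vessel miRNAs had a median of -0.17 with sham day 14 and 0.31 with the other sham samples. For 3 of the 4, sham day 14 lay above every other sham sample, as for 31.5% of all miRNAs.

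MiR-122, the main miRNA of hepatocytes, had the lowest ratio of the day, -2.06 ± 0.41 (adjusted p = 0.00296). It read 6.47 and 6.33 on the TAB arrays and 9.39 and 7.55 on the sham arrays, so that the sham arrays differed from each other by more than the nearer one differed from TAB. Without sham day 14 replicate 1 the ratio was -1.14, and without sham day 14 replicate 2 it was -2.99. The raw intensity was 88 and 82 on the TAB arrays and 978 and 206 on the sham arrays, with the TAB values near the empty spots, and the miRNA was found on 1 of the 2 TAB arrays. The other sham samples ranged from 6.67 to 6.98, and the second ratio was -0.43.

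In limma on the averaged samples, sham day 14 exceeded the mean of the other sham samples by 1.64 for miR-122 (adjusted p = 0.0136). This was the only call of the sham term among the 928 miRNAs (0.108%), with 179 at an unadjusted p under 0.05. The count was 29 with 75th percentile scaling, 30 with the processed table, 16 with separate quantile targets, 0 with replicate 1 arrays alone, and 44 with replicate 2 arrays alone. All 3 liver miRNAs of the list had a sham level on day 14 above every other sham sample, as had 31.5% of all miRNAs. The same was so for all 7 muscle miRNAs, so this was not particular to the liver list. The summed linear intensity of miR-122, miR-192, and miR-194 was 320 and 312 on the TAB arrays, 949 and 414 on the sham arrays, and 299 to 325 in the other sham samples. The part of liver RNA or of the array itself in these values was not tested.

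MiR-1896 read 11.03 and 10.89 on the TAB arrays and 12.10 and 12.42 on the sham arrays (-1.30 ± 0.15, adjusted p = 4.53e-05), and its second ratio was -1.86. MiR-3474 read 9.69 on both TAB arrays and 10.63 and 11.10 on the sham arrays (-1.17 ± 0.16, adjusted p = 0.000184), with a second ratio of -1.44. MiR-706 read 8.00 and 8.31 on the TAB arrays and 9.14 and 9.11 on the sham arrays (-0.97 ± 0.14, adjusted p = 0.000317), with a second ratio of -1.05. These were lowered without overlap and past the limit with either sham, and their ratios were below 0 on all 5 days. MiR-667* (-0.96), miR-3472 (-0.93), and miR-1188 (-1.03) were likewise past the limit with both, although miR-1188 was within it without sham day 14 replicate 2 (-0.64). MiR-5122 (-0.78 and -1.10), miR-351* (-0.76 and -0.95), and miR-574-5p (-0.77 and -1.01) completed those past the limit with either sham, beside miR-466f, and miR-574-5p did not pass the test on the arrays (adjusted p = 0.0788).

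MiR-505-5p read 7.92 and 7.73 on the TAB arrays and 8.77 and 9.12 on the sham arrays (-1.13 ± 0.13, adjusted p = 5.37e-05). Its other sham samples ranged from 7.97 to 8.66, its second ratio was -0.48, and its ratio was 0.06, -0.55, 0.51, and -0.10 on the other days. MiR-133a*, the minor strand of the muscle miRNA miR-133a, read 9.44 and 9.09 on the TAB arrays and 9.996 and 10.29 on the sham arrays (-0.88 ± 0.17, adjusted p = 0.00247). Its second ratio was -0.02, since the other sham samples ranged from 9.10 to 9.41. In both, the TAB and sham arrays of the day were apart. For miR-133a* nearly the whole ratio lay in the sham level of the day, whereas for miR-505-5p sham day 14 was 0.65 above the other sham samples and TAB day 14 differed by -0.46 from the other TAB samples.

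MiR-22, which is known to promote growth of heart muscle cells, read 12.95 and 13.45 on the TAB arrays and 14.43 and 13.64 on the sham arrays (-0.83 ± 0.24, adjusted p = 0.0209). Its second ratio was -0.27. Without sham day 14 replicate 1 its ratio was -0.44 and without TAB day 14 replicate 1 it was -0.59, both within the limit. MiR-7b* read 7.68 and 7.80 on the TAB arrays and 8.04 and 8.98 on the sham arrays (-0.77 ± 0.27, adjusted p = 0.0526), with a second ratio of -0.39, and was at -0.30 without sham day 14 replicate 2. MiR-378b, miR-1843-5p, and miR-1843b-5p had ratios of -0.90, -0.91, and -0.89 and second ratios of -0.52, -0.62, and -0.57. MiR-3098-5p, miR-204*, miR-669c, and miR-370 had ratios of -0.88, -0.77, -0.71, and -0.71 and second ratios of -0.67, -0.42, -0.56, and -0.53.

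The 48 ratios past the limit were then sorted by the sham on which they rest. With the other sham samples as denominator, 20 of the 25 raised and 10 of the 23 lowered miRNAs stayed past the same limit. The 5 raised miRNAs that did not were miR-1247*, miR-5097, miR-130b, miR-5130, and miR-2136, with second ratios of 0.12, 0.48, 0.68, 0.58, and 0.38. MiR-130b thus fell just short of the limit of 0.70, whereas miR-126-5p (0.71) and miR-3968 (0.72) stayed just past it. The 13 lowered miRNAs that did not included miR-122, miR-505-5p, miR-378, miR-378b, miR-133a*, and miR-22. None of the 48 changed its sign. With a wider limit for the second ratio, 2 SD of the second ratios, 26 of the 48 instead of 18 passed with sham day 14 only. Single arrays also decided some memberships, since 29 of the 48 stayed past the limit whichever array of day 14 was left out. Beside the miRNAs given above, miR-133a* (-0.70), miR-17 (0.71), miR-669c (-0.48), miR-5122 (-0.72), and miR-370 (-0.71) did not reach the limit of the run without TAB day 14 replicate 2. The same was so for miR-7b* (-0.71), miR-20a (0.66), miR-451 (0.52), miR-370 (-0.70), miR-466f (-0.71), and miR-574-5p (-0.65) without TAB day 14 replicate 1. Without sham day 14 replicate 1 these were miR-378 (-0.74), miR-669c (-0.68), miR-451 (0.73), miR-5130 (0.70), miR-466f (-0.68), and miR-574-5p (-0.52). Without sham day 14 replicate 2 they were miR-2136 (0.64), miR-17 (0.66), miR-20a (0.59), miR-351* (-0.50), miR-5122 (-0.50), miR-451 (0.71), miR-370 (-0.56), and miR-204* (-0.50). In the other direction, 42 raised and 22 lowered miRNAs passed the limit only with the other sham samples, so that the second ratio counted 62 raised and 32 lowered miRNAs (6.68% and 3.45%).

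Among the miRNAs past the limit only with the other sham samples were members of the let-7, miR-15, and miR-23/27/24 lists and miRNAs of none of them. Beside miR-23a, let-7g, miR-16, and miR-24, whose second ratios were the 4 highest of miRNAs within the limit of the day (1.38 to 1.50), they included miR-26b (1.35), miR-130a (1.29), miR-107 (1.24), miR-103 (1.16), miR-221 (1.04), and miR-29b (0.93), a regulator of collagen mRNAs. Their ratios with sham day 14 were 0.64, 0.27, 0.64, 0.34, 0.37, and 0.03. Let-7g read 11.12 and 10.72 on the TAB arrays and 10.10 and 10.63 on the sham arrays, against 9.17 to 9.83 in the other sham samples. On the lowered side, miR-5115 read 13.20 on both TAB arrays and 13.54 and 13.73 on the sham arrays, against 14.20 to 14.66 in the other sham samples (ratio -0.43, second ratio -1.15). MiR-1952 (-0.40 and -1.12), miR-1894-5p (-0.37 and -1.08), and miR-466h-5p (-0.63 and -1.04) followed.

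**Figure D4:**
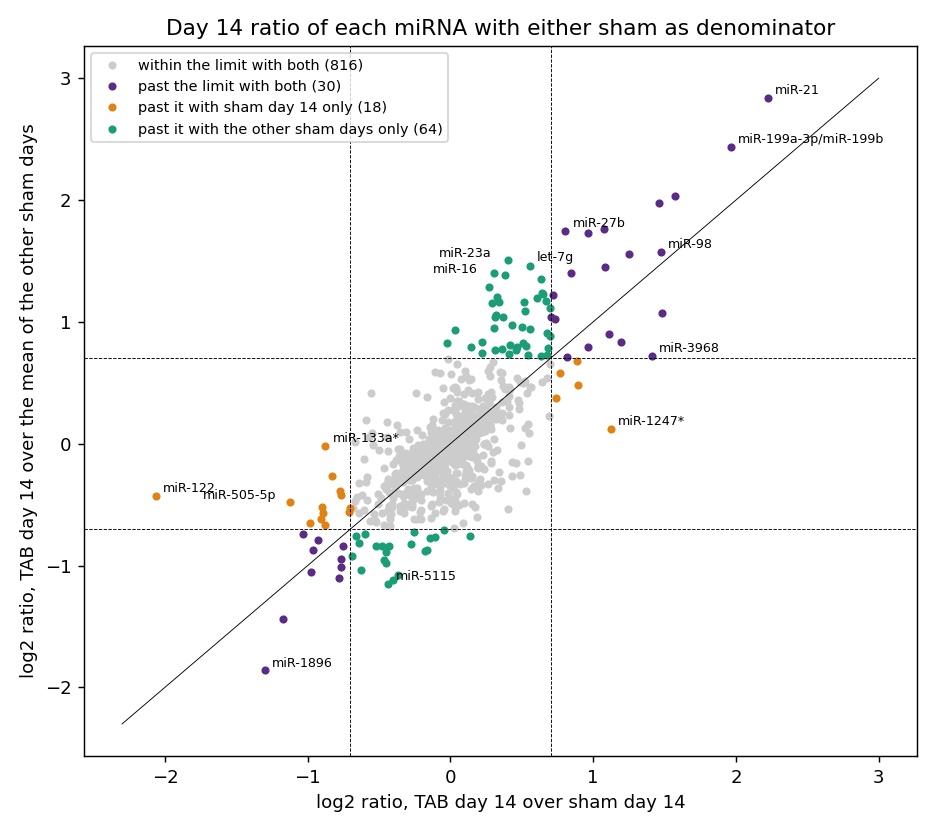
Log2 ratio of TAB day 14 over sham day 14 (horizontal axis) and over the mean of the 4 other sham samples (vertical axis) for each of 928 miRNAs, with dashed lines at the limit of 0.70 and a solid line of equal ratios. Purple points (30) passed the limit with both, orange points (18) with sham day 14 only, and green points (64) with the other sham samples only. MiR-122 lies far left of the line at -2.06 and -0.43.

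The miR-466, miR-467, miR-669, and miR-297 families, which come largely from a repeat-rich intron of the Sfmbt2 gene, had 67 measured members. Their median ratio was 0.03 with sham day 14, between -0.04 and 0.02 from that of all miRNAs under the scalings tried, with 0 raised and 2 lowered members past the limit (miR-466f at -0.75 and miR-669c at -0.71). Over all miRNAs 2.69% were raised and 2.48% lowered past it. With the other sham samples the median was -0.36 and 9 members were lowered past the limit, against -0.03 and 3.45% over all miRNAs. For 54 of the 67 the sham level of day 14 lay below every other sham sample, and for 0 above, while over all miRNAs 284 lay below and 292 above. The TAB level of day 14 lay above every other TAB sample for 31 of the 67, as for 18.5% of all miRNAs. Many members have near-identical sequences, so they are not separate measurements.

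Among blood cell miRNAs, miR-142-3p of white blood cells read 7.33 and 7.38 on the TAB arrays and 6.80 and 6.56 on the sham arrays (0.67 ± 0.07, adjusted p = 1.84e-05), just within the limit. Its ratio was 1.03, 1.63, 1.46, and 0.77 on the other days. MiR-223 of myeloid cells had a ratio of -0.05 ± 0.19 on day 14 (adjusted p = 0.867), against 1.45, 1.23, 0.83, and 0.59 on the other days. Its sham arrays on day 14 read 7.70 and 6.98, and the TAB arrays lay between them. Of 7 white blood cell miRNAs, 2 passed the test on the arrays, both upward (12.3% of all miRNAs were higher and 14.3% lower), 4 had ratios above 0, and the median was 0.05. MiR-451 of red blood cells read 8.45 and 8.04 on the TAB arrays and 7.54 and 7.52 on the sham arrays (0.72 ± 0.10, adjusted p = 0.000282). Its second ratio was 1.22. The shared probe of miR-486 and miR-3107, also of red blood cells, went the other way, with 9.62 and 9.57 on the TAB arrays and 10.22 and 10.18 on the sham arrays (-0.60 ± 0.21, adjusted p = 0.052), and the 4 red blood cell miRNAs had a median of 0.20. Fewer cells of a type and less RNA per cell cannot be told apart in tissue RNA. Of 7 brain, 7 epithelial and pancreatic, 2 skeletal muscle, and 11 germ line miRNAs, 0 passed the limit on day 14 in either direction. Of all miRNAs, 2.69% were raised and 2.48% lowered past it. In these lists 4, 1, 1, and 8 miRNAs were found on both arrays of a surgery on day 14. With so few found, and with these shares over all, the absence of calls does not show that these miRNAs were unchanged.

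Of 17 miRNAs known elsewhere as raised in hypertrophy, 15 had ratios above 0 (50.4% of all miRNAs) and 8 passed the upper limit (2.69% of all), with a median of 0.53 (0.00 over all). The exceptions were miR-22 (-0.83) and miR-212-3p (-0.40 ± 0.09, adjusted p = 0.00536). With the other sham samples 13 passed the upper limit (6.68% of all) and the median was 1.41 (-0.03 over all). Of 18 miRNAs known elsewhere as lowered in or opposing hypertrophy, 1 passed the upper limit (miR-98) and 1 the lower (miR-378, against 2.48% of all), and the median was -0.07 with sham day 14 and 0.30 with the other sham samples. Both lists were chosen with earlier results of these data known, so these counts are a description only.

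Whether the difference between TAB and sham on day 14 was unlike that of the other days was tested with limma as an interaction on the averaged samples. Taken with its sign, the difference was higher on day 14 for 8 miRNAs (0.862%) and lower for 1 (0.108%). An unadjusted p under 0.05 was found for 148. The lower one was miR-122 (-1.72 ± 0.25, adjusted p = 0.0348). The higher ones were miR-669d, miR-467c, miR-297b-5p, miR-297c, miR-698, miR-125b-1-3p, miR-3060*, and miR-3064-5p, of which 4 belong to the miR-466, miR-467, miR-669, and miR-297 families (7.22% of all miRNAs).

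MiR-669d read 8.36 and 8.38 on the TAB arrays and 8.51 and 8.18 on the sham arrays, so that its ratio was 0.03 on day 14, against -0.91, -1.25, -1.03, and -0.96 on days 3, 5, 7, and 28 (interaction 1.06 ± 0.15, adjusted p = 0.0348). MiR-467c had a ratio of 0.03 on day 14, against -0.86, -1.08, -0.75, and -1.05 (0.97 ± 0.14, adjusted p = 0.0348). In both, sham day 14 was below and TAB day 14 above the samples of the other days. MiR-698 was the other kind: its ratio of 0.55 on day 14 rests on TAB arrays at 7.67 and 8.60, of which only the second stood clear of the sham arrays at 7.58 and 7.59. The error of this test comes from the other 4 days of each surgery, and counts of calls were 0 in each direction without day 3, without day 7, and with day as a block.

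**Figure D5:**
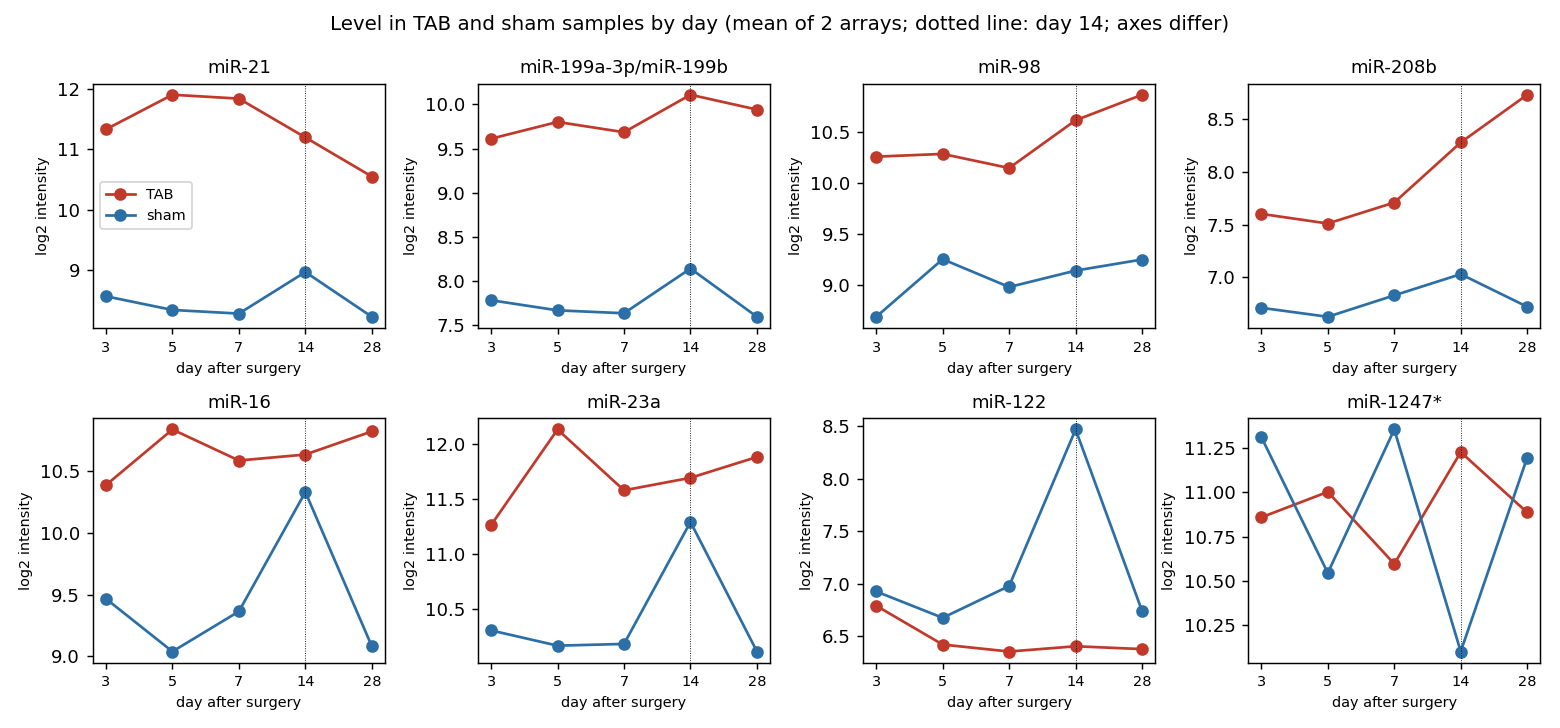
Log2 intensity (vertical axes, which differ) of 8 miRNAs by day after surgery (horizontal axes, days evenly spaced), with the mean of the 2 arrays of TAB samples in red and of sham samples in blue. The sham level of miR-23a, miR-16, and miR-122 peaks on day 14 (dotted line), whereas that of miR-98 lies within the range of the other days.

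Across the days, 20 of the 25 raised and 18 of the 23 lowered miRNAs of day 14 had ratios of the same sign on all 5 days, as had 45.9% of the 928 miRNAs. The exceptions were miR-494, miR-5109, miR-1247*, miR-1894-3p, and miR-2136 among the raised and miR-370, miR-22, miR-133a*, miR-378, and miR-505-5p among the lowered miRNAs. Day 14 had the smallest ratio of the 5 days for 7 of the 25 raised miRNAs and the largest for 8, and it had the most negative ratio for 14 of the 23 lowered miRNAs. Over all 928 miRNAs it had the smallest ratio for 29.2% and the largest for 27.7%, and since the 48 were chosen by their day 14 ratio, these counts are a description only.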

How the data were processed

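Total RNA of the left ventricle was labelled with Cy5 and read on OneArray slides for mouse and rat miRNAs. The raw table deposited by the authors gives spot intensities without background subtraction and the GenePix flag of every spot. A processed table of linear intensities, in which the authors had combined, filtered, and scaled the spots, was deposited as well and served as an alternative. Its medians were 114 and 114 on the TAB day 14 arrays, 102 and 102 on the sham day 14 arrays, and 93.1 to 136 on the others; its scale target is unknown. Raw intensities were combined by the median of 3 spots, 158 of 1086 mouse probes with a negative flag on every spot of every array were removed, and values were log2-transformed and quantile-normalized over 20 arrays with limma (3.58.1, R 4.3.3). Of the 928 probes left, 18 name several miRNAs. On day 14, miR-709 reached the scanner ceiling on 1 array and miR-690 on 2.

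Two-sided limma tests (lmFit, eBayes, Benjamini-Hochberg over 928 miRNAs) used 20 arrays with 1 mean per surgery and day (10 residual degrees of freedom), or 10 averaged samples with terms for TAB day 14 and sham day 14 (6 residual degrees of freedom). Other scalings, background correction, filters, spot means, limits, and left-out arrays or days were tried as alternatives. The scripts were tested on simulated data. Arrays hold no molecule counts, and precision is limited by 2 arrays per sample. The members and miRNA lists were chosen with earlier results of these data known. MiRNAs were named by rule: the 12 highest and 12 lowest ratios, the 6 calls of each direction most moved by the choice of sham, the 4 of each direction past the limit with the other sham samples only, and list members. Others were named after their values were seen. Mature sequences are from RefSeq.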

Additional observations from a re-analysis of the deposited data

Results flagged for a closer look

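The averaged sham sample of day 14 stood apart from the other 4 sham samples on the first principal component, with a gap of 0.845 of the range of the 5 samples. The same was so for the sham level of miR-27b (0.908), miR-199a-5p (0.875), miR-23a (0.837), and miR-122 (0.831), and for the TAB level of miR-3474 among the 5 TAB samples (0.779). Of 78 sets of 5 samples examined, 8 had such a gap. Chance gives such a gap in about 1 in 20 sets, but most sets belong to miRNAs chosen for their values on day 14, so the count cannot be read against that share.

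The interaction test took the ratio of day 14, with its sign, minus that of the other days. This value was 1.06 for miR-669d, 1.04 for miR-698, 0.97 for miR-467c, and 0.91 for miR-125b-1-3p. It was 0.83 for miR-297b-5p, 0.80 for miR-297c, 0.60 for miR-3064-5p, 0.60 for miR-3060*, and -1.72 for miR-122. A positive value need not mean a larger difference on day 14. MiR-669d and miR-467c had little difference between TAB and sham on day 14 and negative ratios on the other days.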

How the results depend on the processing

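On day 14, miRNAs past the limit numbered 34 raised and 14 lowered with 75th percentile scaling, 34 and 14 with the processed table, 17 and 56 without scaling between arrays, 3 and 124 with separate quantile targets for TAB and sham, and 13 and 5 with a limit of 2-fold. MiR-21, miR-199a-3p/199b, and miR-3968 were the raised miRNAs past the limit under the separate targets. Of miRNAs found on both arrays of a surgery, 19 were raised and 15 lowered. The array test called 151 higher and 49 lower with 75th percentile scaling, 407 and 87 with the processed table, 40 and 228 without scaling, 24 and 601 with separate targets, 79 and 83 after normalization of the 4 arrays alone, and 12 and 5 when a 2-fold ratio was also asked for. With the replicate number as a block it called 112 higher and 145 lower. The replicate differences of TAB and sham day 14 had a correlation of -0.041 across miRNAs, so the numbers showed no pairing of the day 14 arrays. This correlation was not formed for the other days. When 1 array of day 14 was left out, 26 to 31 miRNAs were raised, 21 to 25 lowered, 72 to 89 higher and 76 to 125 lower in the array test, and 29 of the 48 miRNAs past the limit were past it in all 4 such runs. Of 928 second ratios, 37 were raised and 91 lowered without scaling, 11 and 159 with separate targets, and 41 and 15 at 2 SD of the second ratios. At that last limit, 34 miRNAs passed with the other sham samples only and 26 with sham day 14 only. With separate targets, 31 passed with sham day 14 only.

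Sham day 14 differed from the other sham samples for 29 miRNAs with 75th percentile scaling, 30 with the processed table, 16 with separate targets, 2 with the mean of spots, 6 with the error of the sham samples alone, 2, 5, 2, and 3 without day 3, 5, 7, or 28, 0 with replicate 1 arrays alone, and 44 with replicate 2 arrays alone. TAB day 14 differed from the other TAB samples for 1 miRNA with 75th percentile scaling, the processed table, no scaling, and replicate 2 arrays alone. The interaction was higher and lower for 2 and 1 with 75th percentile scaling and the processed table, 0 and 0 without scaling, 3 and 1 with separate targets, 5 and 1 with the mean of spots, 8 and 2 without the filter on flags, 0 and 0 with day 3 or day 7 left out, with day as a block, and with replicate 1 arrays alone, 4 and 1 with day 5 left out, 1 and 1 with day 28 left out, and 3 and 0 with replicate 2 arrays alone. The cause of these differences was not tested. Under the separate targets the ratio of miR-2136, one of the 25 raised miRNAs, was -0.0254, the only change of sign among the 48, and that of other miRNAs changed sign within the limit: miR-30b (-0.0416), miR-125a-5p (-0.0007), miR-107 (-0.13), miR-497 (-0.23), miR-466i-3p (-0.21), miR-214 (-0.40), miR-19a (-0.0652), miR-181c (-0.0728), miR-146b (-0.0758), miR-103 (-0.38), miR-379 (-0.04), miR-18a (-0.0476), miR-301b (-0.0125), miR-144 (-0.0427), and miR-666-5p (-0.0442). Other alternatives kept the counts within 1.5 times. With 1 RNA sample of each surgery on day 14, no depth of hybridization gives the spread between hearts.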
